A study of Homo sapiens with 52 samples.

Results

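The 9 genes described are the linker histone gene H1FX, the H2A variant genes H2AFZ, H2AFV, H2AFX, H2AFY, H2AFY2 and H2AFJ, and the H3.3 genes H3F3A and H3F3B. They were taken by gene name from all 52 RNA-seq tables, which list 27043 genes each. The cells were fusion-positive rhabdomyosarcoma (FP-RMS) cells, a muscle-lineage tumour line that carries the PAX3-FOXO1 fusion. In a screen, cells were exposed for 6 h to 20 compounds at a high and a low dose, the former 10 times the latter, with 1 sample per dose. The doses were 5 µM and 0.5 µM for LAQ824, Cpd50 and GSKJ4, and 10 µM and 1 µM for the other compounds. The 4 screen controls received DMSO, the solvent, 2 samples at 0.2% and 2 at 0.1%. By the labelled target, 7 compounds act on the acetylation axis: the histone deacetylase (HDAC) inhibitors LAQ824 (HDAC), WT161 (HDAC6), MC1568 (HDAC4/5), Merck60 (HDAC1/2) and OJI-1 (HDAC8), and the bromodomain inhibitors Bromosporin (bromodomains) and SGC-CBP30 (CREBBP/EP300). Another 11 act on the methylation axis: Cpd50, EZ-005, GSKJ4, GSKLSD1, LSD-519, LSD-690, PFI-2, SGC0946, UNC-1215, UNC0638 and UNC1999. PFI-3 (SMARCA4) and Trametinib (MEK1/2) belong to neither. Outside the screen, the HDAC inhibitor N1302 at 1 µM was set against 1 DMSO sample at 6 h, and the HDAC1/2/3 inhibitor entinostat at 1 µM against DMSO at 1, 6 and 24 h, with 1 sample per condition. All samples carry the cell-line label RH4, whereas the screen titles say RH41, so screen samples were not set directly against the others.

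Most histone genes are transcribed during DNA replication, and their messages end in a stem-loop in place of a poly-A tail. The genes described here are transcribed outside replication as well, and their products replace the canonical histones along the genome. Linker histones bind the DNA between nucleosomes, and H1FX encodes H1X, one of them. H2AFZ and H2AFV encode the H2A.Z proteins found near promoters. H2AFX encodes H2A.X, which is phosphorylated beside DNA breaks. H2AFY and H2AFY2 encode the macroH2A proteins, which carry a large macrodomain and are best known from silent chromatin. H3F3A and H3F3B both encode H3.3.

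Depth, recovered as whole reads from the values, ran from 5737939 to 41415071 reads per sample and followed the flow cell, with a median of 10571890 over the 28 samples of flow cell C5JW5ACXX, which held no DMSO sample. The FP-RMS markers MYOD1, MYOG, DES, TFAP2B, FGFR4 and MYH3 were all present in the screen controls. MYOD1 stood at 639.7 to 648 TPM (a level scaled for gene length and library size) and MYOG at 572 to 587 TPM. In those controls the leukocyte marker PTPRC was listed at 0, and EPCAM (epithelial) and PECAM1 (endothelial) reached at most 0.143 and 0.147 TPM. ALB (hepatocyte) ran from 0.203 to 0.436 TPM there. The fibroblast-type collagen gene COL1A1 was at 89.7 to 102 TPM, and over the whole screen it ran from 65.4 to 436 TPM and MYOD1 from 71.0 to 648 TPM; the part of these shifts in the results was not tested. The labels do not say that samples were separate cultures, so the p-values measure the spread between these samples, part of which may be technical. In the tests of compounds against DMSO, this spread came from the 4 DMSO samples and from the high and low doses of all 20 compounds. No dose term was fitted there, so the spread includes the response to the dose step. For H2AFY2 the SE was 0.35, with DMSO SDs of 0.02 at 0.2% and 0.03 at 0.1% on the log2 scale. Its steps from low to high dose ran from -1.83 (WT161) to 0.08 (LAQ824).

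The promoters of 4 members are printed from RefSeq (GRCh38.p14), chosen after their values were seen because 3 of the genes rose and 1 (H2AFY2) fell under both LAQ824 and Bromosporin. All 9 genes matched an entry in the promoter table. Each sequence is the 250 bases before the RefSeq start, 5′ to 3′ on the strand of the gene. Capitals mark CCAAT (or its reverse complement ATTGG) and TATAAA (or TTTATA), which were searched on both strands together with the H1 box AAACACA (or TGTGTTT). The stretches are chr3:129316287-129316536 (minus strand) for H1FX, chr11:119095466-119095715 (minus strand) for H2AFX, chr17:75779780-75780029 (minus strand) for H3F3B and chr10:70052596-70052845 (plus strand) for H2AFY2.
H1FX: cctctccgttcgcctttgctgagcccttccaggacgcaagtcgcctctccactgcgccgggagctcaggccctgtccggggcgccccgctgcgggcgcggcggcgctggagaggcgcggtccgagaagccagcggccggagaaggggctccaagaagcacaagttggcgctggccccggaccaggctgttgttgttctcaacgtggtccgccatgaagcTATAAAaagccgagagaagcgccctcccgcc
H2AFX: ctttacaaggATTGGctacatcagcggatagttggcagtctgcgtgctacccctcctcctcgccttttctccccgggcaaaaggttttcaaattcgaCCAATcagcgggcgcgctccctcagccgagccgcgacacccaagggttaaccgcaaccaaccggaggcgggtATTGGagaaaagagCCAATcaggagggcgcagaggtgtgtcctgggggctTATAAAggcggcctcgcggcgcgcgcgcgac
H3F3B: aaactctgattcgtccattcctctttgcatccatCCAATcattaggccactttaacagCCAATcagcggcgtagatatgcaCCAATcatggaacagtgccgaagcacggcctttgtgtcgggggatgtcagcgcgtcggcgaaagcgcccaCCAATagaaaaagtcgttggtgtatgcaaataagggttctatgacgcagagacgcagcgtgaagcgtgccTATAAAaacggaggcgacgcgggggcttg
H2AFY2: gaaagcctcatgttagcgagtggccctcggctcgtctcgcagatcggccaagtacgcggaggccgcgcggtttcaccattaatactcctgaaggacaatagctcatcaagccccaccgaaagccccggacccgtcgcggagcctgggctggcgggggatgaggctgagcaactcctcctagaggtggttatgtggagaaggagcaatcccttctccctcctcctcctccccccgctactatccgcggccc
The H3F3B stretch held 4 CCAAT boxes and 1 TATA box, and so did that of H2AFX. The H1FX stretch held 1 TATA box and no CCAAT box, and the H2AFY2 stretch held neither. None of these 4 stretches held the H1 box. Among the 35116 promoters of the table, 32.0% held a CCAAT box, 10.7% a TATA box and 4.82% an H1 box in the same window. Of the members not printed, H2AFZ had 3 CCAAT boxes and 1 TATA box, H2AFV had 4 CCAAT boxes and H2AFJ had 3. The 2 entries of H2AFY had 0 and 2 CCAAT boxes, and the 4 entries of H3F3A had 0 or 1, with 1 H1 box in 1 of them. These matches describe letters and were not tested for factor binding.

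In the build of the tables (hg19), H1FX lies on chromosome 3 (129033614 to 129035120), H2AFX on chromosome 11 (118964585 to 118966177) and H2AFJ on chromosome 12 (14927270 to 14930936). In GENCODE the canonical transcript of each of these 3 genes has 1 exon. The remaining members have introns: H2AFZ (chromosome 4, 100869244 to 100871512) and H2AFV (chromosome 7, 44866488 to 44887725) have 5 exons each, H3F3A (chromosome 1, 226250408 to 226259703) and H3F3B (chromosome 17, 73772515 to 73776016) have 4, and H2AFY (chromosome 5, 134670071 to 134735577) and H2AFY2 (chromosome 10, 71812357 to 71872040) have 9. The H1FX row overlapped the antisense row H1FX-AS1 by 7 bases, the H2AFY2 row overlapped AIFM2 by 18 bases, and the H2AFY row overlapped C5orf66 by 10300 bases. These 3 neighbours reached at most 4.74, 9.11 and 13.1 TPM, and whether counting used the strand is not given in the sources used here. H2AFX also lies inside the long listed span of MIR3654 (62327635 to 132719675), a row that reached 1610 TPM, where H2AFX reached 883 TPM. Other small-RNA rows with long listed spans covered H2AFX, H2AFV, H2AFY, H2AFJ and H3F3A, and reached at most 23.6 TPM. The part of these rows in the values was not tested.

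The resting level of each gene was read from the screen DMSO samples, averaged first within a DMSO concentration (mean ± SD, n = 2 concentrations). The libraries were poly-A selected, so the values of the members cover only messages with a poly-A tail. H2AFZ was the most abundant at 1275 ± 15.2 TPM, followed by H3F3B at 589 ± 3.93 TPM. H2AFX lay at 363 ± 9.95 TPM, H2AFV at 269.8 ± 0.420 TPM and H2AFY at 239.5 ± 3.45 TPM. H1FX lay at 101 ± 3.48 TPM and H2AFY2 at 87.5 ± 3.78 TPM. The 4 DMSO values of neighbours in this order did not overlap; the closest pair was H1FX (93.8 to 109 TPM) and H2AFY2 (84.0 to 91.7 TPM). H2AFJ, an H2A variant with a C-terminal difference from canonical H2A, was near the floor at 0.832 ± 0.175 TPM. This level rested on 22 and 30 reads at 0.2% DMSO and 16 and 21 at 0.1%. Over all 52 samples H2AFJ had 5 to 65 reads per library. No member differed between 0.2% and 0.1% DMSO by limma (0 of 8 tested at an adjusted p under 0.05 and 0 at an unadjusted p under 0.05, against 0.0122% of all 16359 tested genes called).

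H3F3A was listed at 0 in 48 of the 52 libraries and reached 0.203 TPM, or 2 reads, in the highest. A second row, H3F3AP4, spans 9276 of the 9296 bases listed for H3F3A and was at 0 in every library. The part of this overlap in the zero values was not tested. H3F3A did not pass the filter on low values, so the tests covered 8 of the 9 genes. Whether reads of H3F3A were assigned to other rows or left out cannot be told from the values.

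The first comparison set each gene under each compound against DMSO, with the same 4 DMSO samples behind every compound. H1FX, the linker histone gene, was called under LAQ824, Bromosporin, MC1568 and Cpd50. Its DMSO values were 98.3 and 109 TPM at 0.2% and 93.8 and 104 TPM at 0.1%. Bromosporin brought it to 304 TPM at the high dose and 174 TPM at the low dose, LAQ824 to 160.1 and 189 TPM, and MC1568 to 159 and 127 TPM. All 6 samples lay above every control. Relative to DMSO, H1FX rose 2.26-fold under Bromosporin (log2 change 1.18 ± 0.17 SE, adjusted p = 1.01e-05), 1.71-fold under LAQ824 (0.78 ± 0.17, adjusted p = 3.92e-04) and 1.40-fold under MC1568 (0.49 ± 0.17, adjusted p = 0.0312), by limma on log2(TPM + 1) with Benjamini-Hochberg adjustment over 16359 genes. The MC1568 call was lost in 5 alternatives at adjusted p between 0.0570 and 0.0900, the fits without DMSO 0.2% replicate 1 or DMSO 0.1% replicate 1 among them (adjusted p = 0.0570 and 0.0678).

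The other acetylation-axis compounds did not move H1FX past the threshold. WT161 left it at 107 and 83.9 TPM (-0.09 ± 0.17, adjusted p = 0.706), and SGC-CBP30 at 154 and 107 TPM (0.34, adjusted p = 0.232). Over the 22 samples of the methylation axis H1FX ran from 63.1 TPM (Cpd50, high dose) through a median of 85.8 TPM to 129.9 TPM. Cpd50, labelled as a pan-Jumonji inhibitor, lowered it to 63.1 and 64.8 TPM (-0.65 ± 0.17, adjusted p = 0.0132), a call that median-ratio scaling of the samples ended (-0.53, adjusted p = 0.0866).

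**Figure D1:**
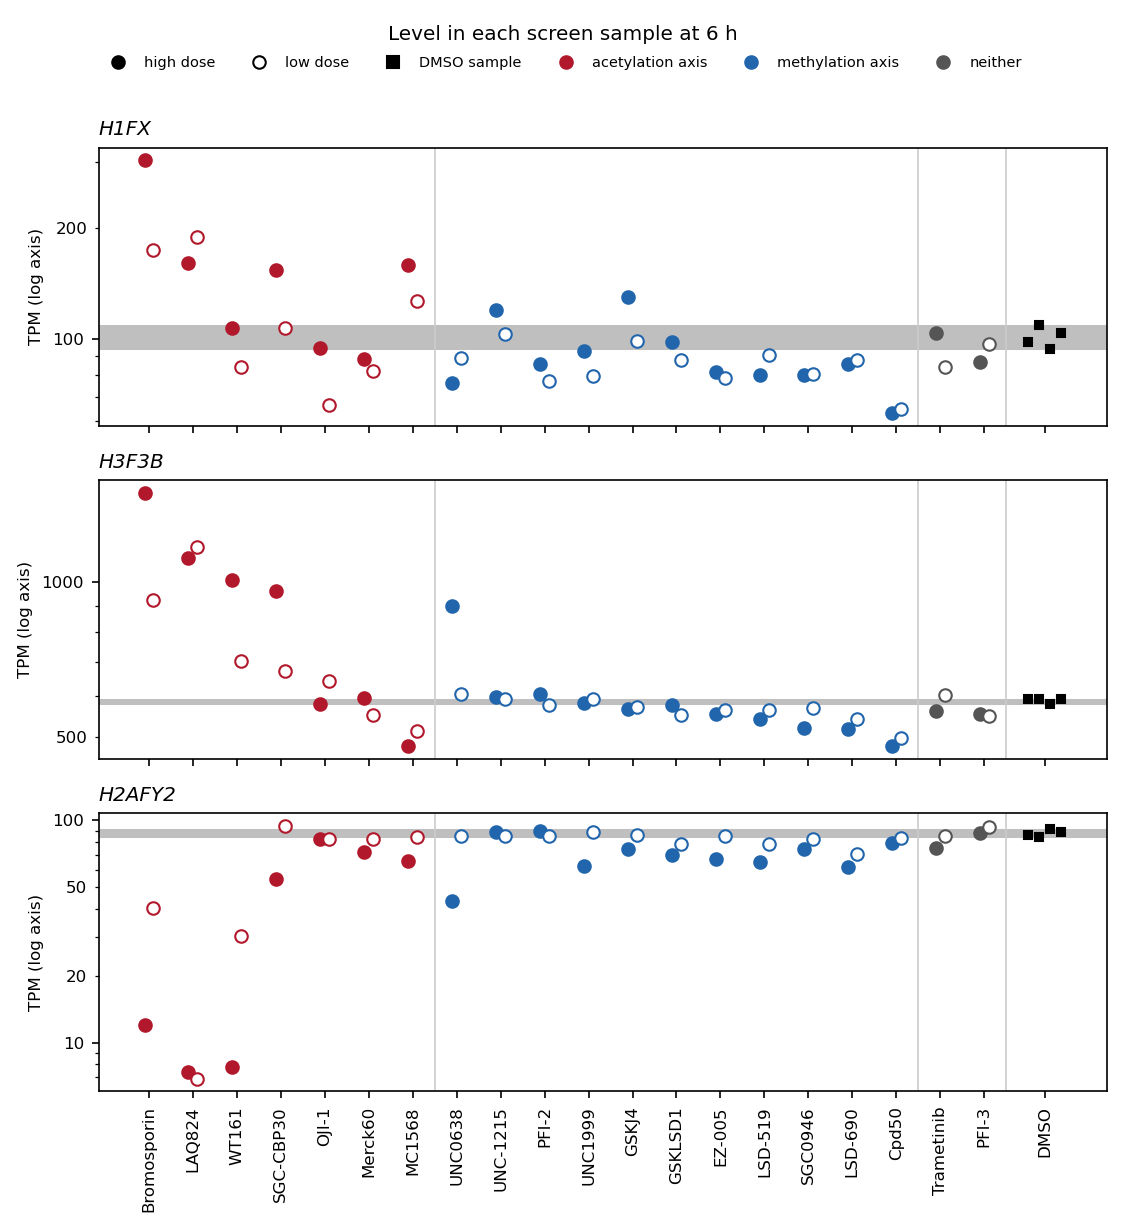
Level in TPM on a log axis of H1FX, H3F3B and H2AFY2 in each of the 44 screen samples; filled circles are high doses, open circles low doses, black squares the 4 DMSO samples, and the grey band spans the DMSO values. H3F3B stands above the band at both doses of LAQ824, Bromosporin, WT161 and SGC-CBP30, H1FX reaches 304 TPM under Bromosporin at the high dose, and H2AFY2 falls to 6.88 TPM under LAQ824 at the low dose.

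Both H2A.Z genes changed little and not always together. H2AFZ stood at 1238, 1292, 1272 and 1300.0 TPM in DMSO. It fell under WT161 to 825 and 941 TPM (-0.53 ± 0.09, adjusted p = 3.04e-05) and under LAQ824 to 926 and 902 TPM (-0.48 ± 0.09, adjusted p = 3.99e-05), whereas it rose under Bromosporin to 1967 and 1521 TPM (0.44 ± 0.09, adjusted p = 2.67e-04). Samples of these 3 compounds lay outside the control range at both doses. Cpd50 lowered it to 944 and 993 TPM (-0.40 ± 0.09, adjusted p = 0.00293; -0.27 and adjusted p = 0.117 after median-ratio scaling). H2AFV, at 265 to 274 TPM in DMSO, rose under WT161 to 314 and 352 TPM (0.30 ± 0.07, adjusted p = 0.00111), under SGC-CBP30 to 341 and 327 TPM (0.31 ± 0.07, adjusted p = 0.00504) and under Trametinib to 319.8 and 344 TPM (0.30 ± 0.07, adjusted p = 0.00789). These compounds share flow cell C5JW5ACXX, and against the other compounds on it none of the 3 H2AFV changes was called (0.19, 0.20 and 0.19, adjusted p = 0.123, 0.641 and 0.673). Under WT161 the 2 H2A.Z genes therefore moved in opposite directions against DMSO.

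H2AFX was raised by some acetylation-axis compounds and lowered by some methylation-axis compounds. In DMSO it stood at 347, 365, 355 and 386 TPM. Bromosporin gave 883 and 552 TPM (0.94 ± 0.20, adjusted p = 4.22e-04) and LAQ824 529 and 554 TPM (0.58 ± 0.20, adjusted p = 0.0144), each above the controls. Cpd50 gave 178 and 174 TPM, a fall of 1.04 on the log2 scale (-1.04 ± 0.20, adjusted p = 6.32e-04). UNC0638, labelled as a KMT1C inhibitor, gave 138 TPM at the high dose and 302 TPM at the low dose (-0.82 ± 0.20, adjusted p = 0.00431). The low-dose sample alone was not called (-0.26, adjusted p = 0.0531), nor was the compound fitted with DMSO alone (adjusted p = 0.177) or against its flow cell (-0.66, adjusted p = 0.213). Over all 22 methylation-axis samples H2AFX ran from 138 to 416 TPM with a median of 286 TPM, and 17 of the 22 lay below the lowest control. Cpd50 and GSKJ4, on a flow cell with DMSO, were below at both doses. GSKLSD1 and UNC-1215, on flow cell H0VWNAGXX, were above at both. The rest of the axis shared C5JW5ACXX, which held no DMSO. There Trametinib (272 and 255 TPM) and OJI-1 (309 and 274 TPM) were below at both doses too, unlike the other compounds of that flow cell outside the methylation axis. MC1568, on a flow cell with DMSO, was also below at both (336 and 339.5 TPM). The part of the flow cell in this count was not tested. Of the same 22 samples, 17 lay below the lowest control for H1FX and for H2AFZ, 15 for H3F3B and 14 for H2AFY2. For H2AFY, H2AFJ and H2AFV the number was 6, 6 and 5. Among the compounds without an H2AFX call were UNC1999 with 207 and 281 TPM (-0.59, adjusted p = 0.192) and EZ-005 with 209.8 and 278 TPM (-0.58, adjusted p = 0.212), labelled for EZH1 and EZH2.

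The macroH2A genes differed in range. H2AFY2 stood at 85.8, 84.0, 91.7 and 88.8 TPM in DMSO. Under LAQ824 it was 7.36 TPM at the high and 6.88 TPM at the low dose (-3.45 ± 0.35, adjusted p = 5.98e-09), a fold of 0.0917. WT161 left 7.80 and 30.3 TPM (-2.42 ± 0.35, adjusted p = 5.28e-06) and Bromosporin 12.0 and 40.2 TPM (-1.93 ± 0.35, adjusted p = 8.54e-05). Every one of these samples was below the controls, and for WT161 and Bromosporin the high-dose sample was the lower. In bulk RNA, loss of the message from a share of the cells and less message in every cell cannot be told apart. SGC-CBP30 gave 54.5 TPM at the high and 94.7 TPM at the low dose, on both sides of the controls (-0.28, adjusted p = 0.694). Over the methylation axis H2AFY2 ran from 43.5 TPM (UNC0638, high dose) to 89.4 TPM with a median of 79.0 TPM, and no compound was called. H2AFY moved within 198 to 263 TPM over the 40 treated samples, against 229.9 to 244 TPM in DMSO. It fell slightly under LAQ824 to 199 and 198 TPM (-0.27 ± 0.06, adjusted p = 4.59e-04), under Cpd50 to 202 and 206 TPM (-0.23 ± 0.06, adjusted p = 0.0141) and under WT161 to 205 and 219 TPM (-0.17 ± 0.06, adjusted p = 0.0242). Median-ratio scaling took the Cpd50 value to -0.10 (adjusted p = 0.373), and the WT161 call was lost in 4 alternatives (adjusted p between 0.0517 and 0.0740), among them the fit without DMSO 0.2% replicate 2 (adjusted p = 0.0517). H2AFJ was called under WT161 alone, at 0.244 and 0.342 TPM (-0.50 ± 0.18, adjusted p = 0.0234; adjusted p = 0.0553 without DMSO 0.2% replicate 2), at a depth of few reads.

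H3F3B was the H3.3 message that could be followed. It stood at 592, 592, 579.8 and 593 TPM in DMSO. Bromosporin gave 1494 and 925 TPM, LAQ824 1115 and 1174 TPM, and WT161 1010.1 and 701 TPM. All lay above the controls, and all 3 compounds were called, with changes of 1.00 ± 0.15 (adjusted p = 1.01e-05), 0.96 ± 0.15 (adjusted p = 3.50e-06) and 0.51 ± 0.15 (adjusted p = 0.00632). Against its own flow cell the WT161 change was 0.42 (adjusted p = 0.231). SGC-CBP30 gave 960.2 and 671 TPM, both above the controls, with a change just short of the threshold (0.45 ± 0.15, adjusted p = 0.0527). UNC0638 gave 899 TPM at the high dose and 605 TPM at the low dose (0.32, adjusted p = 0.105). The 3 lowest compounds were Cpd50 at 479 and 496 TPM, MC1568 at 479 and 512 TPM and LSD-690, none of them called.

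**Figure D2:**
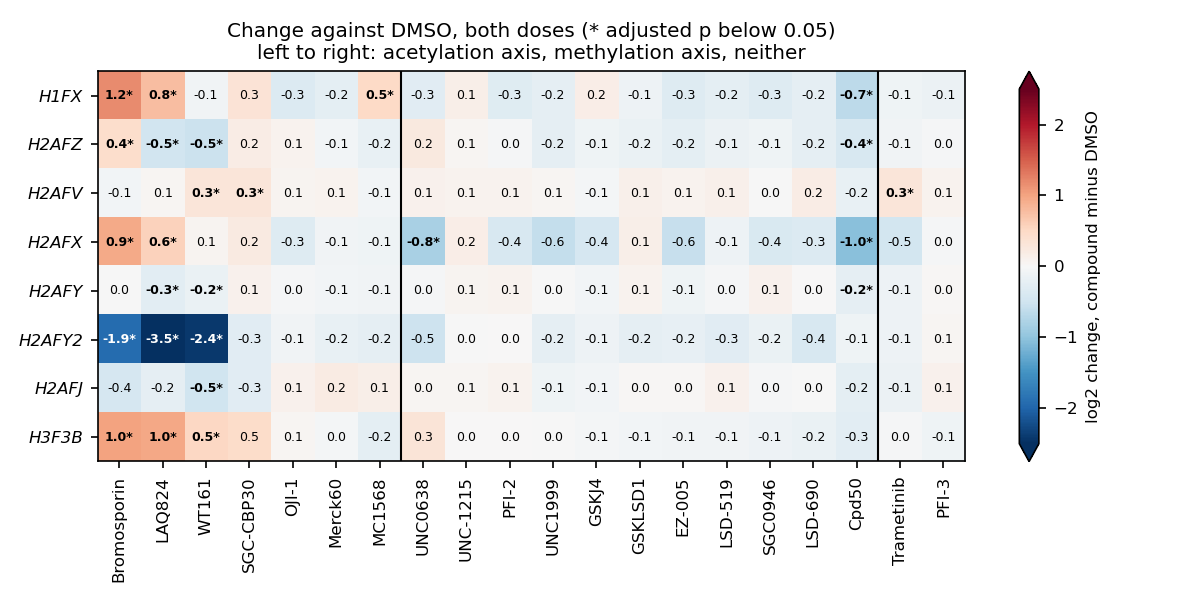
Log2 change against DMSO (both doses against 4 DMSO samples) of the 8 tested members, in rows, under the 20 compounds, in columns; an asterisk marks an adjusted p below 0.05, and values past the ends of the colour bar share its end colours. Calls gather under LAQ824, Bromosporin and WT161, with H3F3B at 0.96 and H2AFY2 at -3.45 under LAQ824.

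Counted by compound, the number of members called has to be read against all genes, many of which moved under the same compounds. LAQ824 called 6 of 8 members, 3 higher and 3 lower, against 60.5% of all tested genes. WT161 also called 6 of 8, 2 higher and 4 lower, against 41.8%. Bromosporin called 5 of 8, 4 higher and 1 lower, against 46.0%. SGC-CBP30 called 1, higher, against 9.84%, and MC1568 called 1, higher, against 33.2%. Merck60 and OJI-1 called none by limma, also at an unadjusted p under 0.05 (0 of 8 each), against 0.648% and 1.22% of all genes. The median change of the 8 members was 0.22 under Bromosporin, where that of all tested genes was -0.12, and -0.09 under LAQ824, where that of all genes was 0.06.

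On the methylation axis Cpd50 called 4 of 8 members, all lower, against 11% of all genes, and UNC0638 called 1, lower, against 25.2%. Cpd50 had a median member change of -0.26, against -0.05 over all genes. After median-ratio scaling only the H2AFX call was kept under Cpd50, and those of H1FX, H2AFZ and H2AFY were lost. Under the other 9 compounds of that axis no member was called by limma, and 0 to 2 of the 8 passed an unadjusted p of 0.05. All-gene shares there were 7.88% for GSKLSD1, 4.03% for LSD-690, 1.91% for PFI-2, 1.74% for LSD-519, 0.819% for SGC0946, 0.789% for UNC1999, 0.617% for EZ-005, 0.0672% for UNC-1215 and 0.00611% for GSKJ4. Trametinib called 1 member (6.14% of all genes) and PFI-3 none, with 0 at an unadjusted p under 0.05 (0.0245%).

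Pooled over compounds, 19 of 56 member tests on the acetylation axis were called, or 33.9%, against 27.6% of all tests on that axis. For the methylation axis the count was 5 of 88, or 5.68%, against 4.91%, and for the remaining 2 compounds 1 of 16, or 6.25%, against 3.08%. The methylation-axis share was close to that of all genes, and the acetylation-axis share was higher than it by an amount that was not tested. With a change of at least 2-fold required as well, 4 of 56 acetylation-axis tests (1 higher and 3 lower) were called. This was 7.14%, below the 8.48% of all tests on that axis. On the methylation axis 1 of 88 was called, or 1.14%, against 0.899%, and for the other compounds 0 of 16, against 0.789%. The 4 tests were H2AFY2 under LAQ824, WT161 and Bromosporin, and H1FX under Bromosporin. The methylation-axis one was H2AFX under Cpd50.

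Axes were then compared with compounds as units. The 7 acetylation-axis compounds changed H2AFY2 by -1.22 ± 1.36 (mean ± SD) on the log2 scale and the 11 methylation-axis compounds by -0.21 ± 0.16, a difference of -1.02 ± 0.37 SE (limma adjusted p = 0.0853). H2AFY2 was above DMSO in 0 of 7 and in 0 of 11 of these compounds. The difference was 0.58 ± 0.18 for H2AFX (adjusted p = 0.0612), 0.52 ± 0.18 for H1FX (adjusted p = 0.0724) and 0.43 ± 0.15 for H3F3B (adjusted p = 0.0741). H2AFX was above DMSO in 4 of 7 and 2 of 11 compounds, H1FX in 4 of 7 and 2 of 11, and H3F3B in 5 of 7 and 3 of 11. For H2AFZ, H2AFV, H2AFY and H2AFJ the difference lay between -0.13 and 0.04. No member was called between axes by limma, although 4 of 8 passed an unadjusted p of 0.05, and 0% of all genes were called (5018 of 16359 unadjusted). Calls turned on single compounds: leaving out Merck60 or OJI-1 called 4 members each, with 2673 and 3056 of all 16359 genes, and leaving out MC1568 called 3, with 2503 of all genes. Without LAQ824 the H2AFY2 difference was -0.65 (adjusted p = 0.219), and within flow cell C5JW5ACXX it was -0.72 (adjusted p = 0.334). No member was called within that flow cell.

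**Figure D3:**
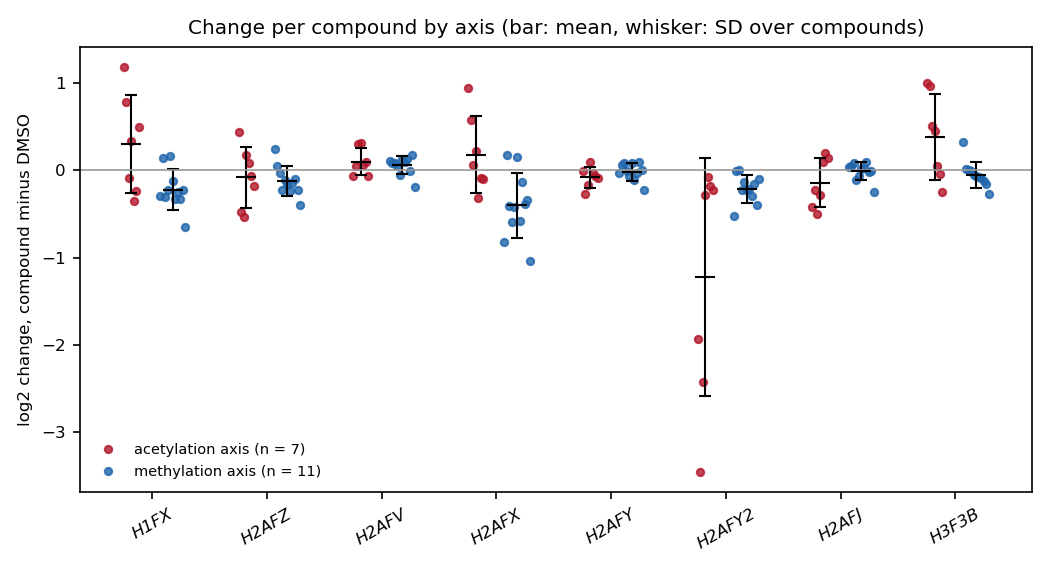
Log2 change against DMSO of each tested member, 1 point per compound, for 7 acetylation-axis (red) and 11 methylation-axis (blue) compounds; the bar is the mean and the whisker the SD over compounds. Acetylation-axis points spread from -3.45 to -0.08 for H2AFY2, with both axes near 0 for H2AFY and H2AFV.

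The step from the low to the high dose was tested over the 20 compounds, each within its flow cell. H2AFY2 was lower at the high dose by -0.39 ± 0.12 (mean difference ± SE, adjusted p = 0.220), and above the low dose in 3 of 20 compounds. H1FX differed by 0.16 ± 0.06 (adjusted p = 0.234), higher at the high dose in 13 of 20, and H2AFY by -0.06 ± 0.03 (adjusted p = 0.248). No member was called by limma, 3 of 8 passed an unadjusted p of 0.05, and 0% of all genes were called. Nor was any called when the step was compared between axes (2 of 8 unadjusted, 0% of all genes called), where H2AFX had a step of 0.21 ± 0.27 (SD) over acetylation-axis compounds and -0.28 ± 0.33 over methylation-axis ones (difference 0.49 ± 0.15 SE, adjusted p = 0.197). The 3 compounds with the strongest changes had unlike steps. From low to high dose H2AFY2 differed by -1.66 under Bromosporin, -1.83 under WT161 and 0.08 under LAQ824. With 1 sample per dose these steps have no error of their own.

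N1302 and entinostat were each read against their own DMSO, without replicates and so without a test. H1FX was 162 TPM with N1302 and 31.3 TPM in its DMSO sample, a log2 difference of 2.33. Likewise higher were H2AFX, at 642 against 159 TPM (2.01), and H3F3B, at 1154 against 568 TPM (1.02). H2AFY2 was 1.70 against 30.2 TPM (-3.53), on 26 reads in the treated sample. These 4 of 8 members differed by at least 2-fold, 3 higher and 1 lower, as did 30.9% of all tested genes. The control itself stood apart: H1FX was 68.9 TPM and H2AFX 304 TPM in the 6 h DMSO sample of the time course. Against that sample the N1302 differences were 1.22 and 1.07, with 1.12 for H3F3B and -3.79 for H2AFY2. H2AFZ was 1133 against 1801 TPM (-0.67), and H2AFJ 0.349 against 0.923 TPM (-0.51). H2AFY (-0.25) and H2AFV (-0.14) had the opposite sign after median-ratio scaling (0.08 and 0.19).

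The entinostat series gave times. H2AFY2 was 36.8, 23.4 and 5.32 TPM, against 39.5, 36.3 and 39.5 TPM (-0.10, -0.61 and -2.68), with 138 reads in the treated 24 h sample. Its distance from DMSO was larger at each later time. H3F3B was 609, 495 and 876 TPM, against 602, 529 and 506 TPM, and so stood above its control chiefly at 24 h (0.79). H2AFV had a like course, with 330.2 against 235 TPM at 24 h (0.49) and differences of 0.02 and -0.02 before. H1FX differed by 0.15, 0.60 and 0.41 and H2AFX by 0.07, 0.27 and -0.09. H2AFZ stayed within 0.01 to 0.09 of DMSO. At least 2-fold differences were seen for 0 of 8 members at 1 h, 0 at 6 h and 1 (H2AFY2) at 24 h, against 1.24%, 6.08% and 22.4% of all tested genes.

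**Figure D4:**
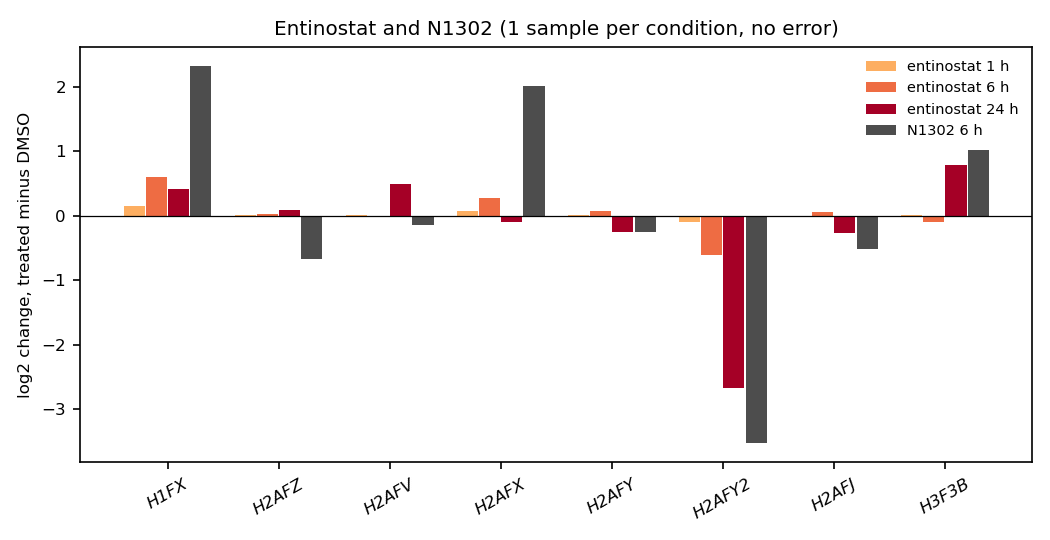
Log2 difference from DMSO of the 8 tested members after entinostat at 1, 6 and 24 h and after N1302 at 6 h, 1 bar per comparison of 1 treated and 1 control sample, with no error. H2AFY2 reaches -2.68 with entinostat at 24 h and -3.53 with N1302, while H1FX is 0.60 with entinostat at 6 h and 2.33 with N1302.

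Genes that load or remove these histones were counted from a list of 30 variant chaperones and remodelling subunits, of which 29 were tested. LAQ824 called 8 higher and 12 lower, WT161 10 higher and 10 lower, and Bromosporin 5 higher and 15 lower. Over all tested genes 60.5%, 41.8% and 46.0% were called under these compounds. The list medians were -0.20, -0.03 and -0.34, beside 0.06, 0.03 and -0.12 over all tested genes. Under LAQ824 the lowest were KAT5 (-1.53 ± 0.20, adjusted p = 4.04e-07), the acetyltransferase of the TIP60 complex, and ANP32E (-1.52 ± 0.19, adjusted p = 1.19e-07), which removes H2A.Z from nucleosomes. The highest were ASF1B (1.37 ± 0.19, adjusted p = 8.91e-07), an H3-H4 chaperone, and ZNHIT1 (1.11 ± 0.10, adjusted p = 9.13e-10), a subunit of the SRCAP complex that deposits H2A.Z. KAT5 and ANP32E also fell and ASF1B also rose under WT161 and Bromosporin, whereas ZNHIT1 rose under WT161 (0.64) and fell under Bromosporin (-0.32, adjusted p = 0.00931).

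The replication-dependent linker histones gave 5 of 5 tested genes higher under Bromosporin, 4 of 5 higher under LAQ824 and 0 of 5 under WT161, against 46.0%, 60.5% and 41.8% of all genes called in either direction. Because the libraries were poly-A selected, these values, like those of the members, cover only messages with a poly-A tail and not the stem-loop messages. The list medians were 1.72, 1.07 and 0.05, beside -0.12, 0.06 and 0.03 over all tested genes. HIST1H1C, at 51.6 to 61.8 TPM in DMSO, rose by 0.95 ± 0.19 under Bromosporin (adjusted p = 2.79e-04) and 0.49 ± 0.19 under LAQ824 (adjusted p = 0.0300). HIST1H1D, HIST1H1E and HIST1H1T were below 1 TPM in every DMSO sample. Under LAQ824 HIST1H1D (1.68 ± 0.23, adjusted p = 6.07e-07) and HIST1H1E (1.47 ± 0.32, adjusted p = 2.52e-04) rose, and HIST1H1T was not called (0.27, adjusted p = 0.427). Of 12 other histone variants 3 were tested. CENPA, the centromeric H3, fell under Cpd50 (-1.23 ± 0.17, adjusted p = 7.81e-06), LAQ824 (-0.92 ± 0.17, adjusted p = 4.20e-05), WT161 (-0.74 ± 0.17, adjusted p = 0.00105) and UNC0638 (-0.53 ± 0.17, adjusted p = 0.0235). HILS1 fell under LAQ824 (-1.78 ± 0.23, adjusted p = 3.05e-07), Bromosporin (-1.12, adjusted p = 3.56e-04), WT161 (-0.73, adjusted p = 0.0130) and UNC0638 (-0.69, adjusted p = 0.0322). Rows overlapping HILS1 were not looked up, so reads of a neighbour counted there cannot be told apart. H3F3C, at 1.01 to 1.86 TPM in DMSO, was not called under LAQ824 (0.79 ± 0.43, adjusted p = 0.117). Cell cycle genes were counted as well, since canonical histone genes are transcribed with replication. Of 18, LAQ824 called 2 higher and 10 lower, WT161 2 higher and 9 lower and Bromosporin 5 higher and 6 lower, against 60.5%, 41.8% and 46.0% of all genes called. The list medians were -0.39, -0.31 and -0.04, beside 0.06, 0.03 and -0.12 over all tested genes. MCM7 (-1.20 ± 0.15) and TYMS (-1.52 ± 0.17) were lowest, and CDC6 (1.01 ± 0.14) and CDK1 (0.22 ± 0.08) highest, under LAQ824. The part of the cell cycle in the member changes was not tested.

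Over the 20 compounds, H2AFY2 varied most among the members, with an SD of 0.93 of its log2 changes, and its change was above 0 for 1 compound. H2AFX followed with an SD of 0.46, H1FX with 0.44 and H3F3B with 0.36. H2AFZ had an SD of 0.23 and H2AFJ of 0.19, while H2AFV (0.13) and H2AFY (0.11) varied least.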

How the data were processed

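RNA from FP-RMS cells was measured by paired-end poly-A RNA-seq. The authors deposited 1 TPM value per gene and sample, scaled for gene length and library size, without pooling replicates. The paper names STAR alignment to hg19 and RSEM quantification, whereas the submitters' processing notes name STAR and edgeR without version. The deposited values resolved to whole reads, and which tool counted them was not tested.

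Samples were grouped from the labels. Testing was limited to 16359 of 27043 genes, those reaching 1 TPM in no fewer than 2 samples, and was done on log2(TPM + 1), so folds of low genes are understated. Compounds were tested against DMSO in 1 limma fit of the 44 screen samples (limma 3.58.1, R 4.3.3, eBayes with trend), with Benjamini-Hochberg adjustment over all tested genes per comparison and calls at an adjusted p below 0.05. Axes were compared on 18 compound means, and dose steps on 20 high minus low differences. The fits were tested on simulated data. Reads were recovered as the smallest whole multiples (tolerance 1e-04) that the values of a gene form, for 23645 of 23645 genes above 0, and describe depth only; shallow libraries limit H2AFJ most. DMSO samples of the same replicate number share a flow cell (replicate 1 C4JM1ACXX, replicate 2 H144EBGXX). Their deviations from the concentration mean had a correlation of 0.313 over 9525 genes. Other steps ran in Python 3.11.15 (pandas 2.3.3, numpy 2.4.6, matplotlib 3.10.9).

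The members, gene lists, motifs and tests were chosen with earlier results of these data known. All members described are named, and from each list the 2 genes with the highest and 2 with the lowest change under LAQ824. A further gene of the set is not reported here. Alternatives were other pseudocounts, filters, scalings, references and sample sets.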

Additional observations from a re-analysis of the deposited data

Results flagged for a closer look

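Among the 16 groups examined (4 DMSO samples for each member with a level above 0, and 7 acetylation-axis compounds for each tested member), 1 held a value far from the rest of its group, where chance flags about 1 in 20. H3F3B was 579.8 TPM in 0.1% DMSO replicate 1, against 592, 592 and 593 TPM in the other 3 controls, and this gap was 0.908 of the whole range of the group. The range itself was small beside the changes of H3F3B under the compounds. Without that sample 18 of the 19 acetylation-axis calls were kept.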

How the results depend on the processing

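The count of 19 acetylation-axis calls stayed between 15 and 24 under the other pseudocount, scaling, filters, dose term, references and low dose alone, with 14 of the 19 kept against the own flow cell; it was 31 with the high dose alone and 4 with at least 2-fold required. The 5 methylation-axis calls became 3 with DMSO averaged per concentration, 22 with only the samples of the compound and DMSO, 31 with the high dose alone, 17 with the low dose alone and 1 at 2-fold; median-ratio scaling called 4 and kept 2 of the 5. For PFI-3 and Trametinib the single call became 0 (averaged DMSO, own flow cell, 2-fold), 4 (own samples and DMSO) or 2 (either dose alone). The fits with own samples or 1 dose estimate the spread from fewer samples. With 1 dose it comes from the DMSO samples alone, and with own samples from DMSO and the 2 doses of 1 compound. Whether this accounts for their higher counts was not tested. Leaving out a DMSO sample gave 17 to 19, 5 to 5 and 1 to 1 calls.

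Between axes, 0 calls became 1 with a mean TPM of at least 5, where fewer genes are tested (833 of all genes called), and 2 with the high dose alone (1614) or with N1302 and entinostat at 6 h added (2048), against 0 of all genes in the reported comparison; leaving out 1 compound gave 0 to 4. The dose steps gave 0 calls throughout. Of 389 alternatives for single changes, 341 kept direction and side of the threshold, 44 lost a call, 4 gained one and 0 reversed. The filters, dose term, averaged DMSO, own samples and 2-fold setting leave the size of a change as it was, so they could not reverse it. The 2-fold setting also ends every call below 2-fold by rule. Against the flow cell of C5JW5ACXX compounds, the reference held the other compounds, active ones included. With the replicate number as a block in the 4 DMSO samples alone, 0 members differed between DMSO concentrations, as without the block. The flow cells of GSKLSD1 and UNC-1215 held no DMSO, so these had no value within the flow cell.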
